A study of Homo sapiens with 2 samples.

Results

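The genes examined are 59 that encode factors of the senescence-associated secretory phenotype, chosen by symbol from a fixed list, among 19974 protein-coding genes on the chromosomes with peaks. DNA fragments cross-linked to mTOR were mapped by ChIP-seq, sequencing after immunoprecipitation of chromatin. The cells were MDA-MB-231, a human line that grows from a triple-negative breast cancer and was kept in medium with serum. The design holds 1 library enriched with an antibody against mTOR and 1 input library, chromatin without that enrichment, which served for calling peaks. On the build hg38 21440 peaks were called for the mTOR library, each assigned by the deposited annotation to the gene with the nearest start site, and 52 of these peaks were assigned to 30 of the 59 genes. The cells carried no labelled treatment or induction of senescence, and the peak list holds no expression values, so neither the senescent state nor the markers of the line could be checked.

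Senescent cells stop dividing and release cytokines, chemokines, proteases and growth factors, which act on neighbouring cells and on the immune system. The transcription factors NF-κB and C/EBPβ switch on many of these genes, and interleukin 1α made by the senescent cell keeps NF-κB active. The kinase mTOR ties cell growth to nutrients and growth factors, and in the cytoplasm it is known to promote translation of the interleukin 1α and MAPKAPK2 mRNAs and with them the secretory programme. The title of the series concerns a nuclear complex of mTOR with PML and the DNA-binding protein RONIN in ribosomal gene expression and senescence.

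There is no replicate of either library, so the intervals given are exact Clopper-Pearson 95% intervals that cover counting error only, and no test between conditions was possible. Peaks assigned to the same gene, and genes of the same cluster, are not independent replicates. The read depth is unknown. The deposited peak score has no stated scale and serves only to rank peaks within this list, in which it ran from 13 to 5636 with a median of 61.

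The promoters of IGFBP3 and TGFB1 are printed because, of the 4 secretory factor promoters with a peak and a RefSeq sequence used here, they were the ones whose bases the mTOR peaks covered most. Those of CSF1, CCL2 and IGFBP7, the other genes with a promoter peak, were not used here. IGFBP3 encodes the main carrier of insulin-like growth factors in blood, and TGFB1 encodes the cytokine TGF-β1, which arrests growth of epithelial cells. Each sequence holds the 250 bases before the RefSeq start site and the 50 from it on, 5′ to 3′ on the strand of the gene (GRCh38.p14, both genes on the minus strand), and capitals mark the bases under the peak. The IGFBP3 sequence lies at chr7:45921223-45921522 and the TGFB1 sequence at chr19:41353873-41354172.
IGFBP3: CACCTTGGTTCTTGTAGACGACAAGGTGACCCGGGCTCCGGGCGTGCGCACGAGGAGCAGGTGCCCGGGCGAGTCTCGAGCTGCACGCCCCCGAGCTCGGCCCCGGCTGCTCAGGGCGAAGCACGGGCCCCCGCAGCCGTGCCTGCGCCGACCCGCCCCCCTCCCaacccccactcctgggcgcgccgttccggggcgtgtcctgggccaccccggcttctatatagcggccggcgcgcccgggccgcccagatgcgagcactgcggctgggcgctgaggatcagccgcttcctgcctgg
TGFB1: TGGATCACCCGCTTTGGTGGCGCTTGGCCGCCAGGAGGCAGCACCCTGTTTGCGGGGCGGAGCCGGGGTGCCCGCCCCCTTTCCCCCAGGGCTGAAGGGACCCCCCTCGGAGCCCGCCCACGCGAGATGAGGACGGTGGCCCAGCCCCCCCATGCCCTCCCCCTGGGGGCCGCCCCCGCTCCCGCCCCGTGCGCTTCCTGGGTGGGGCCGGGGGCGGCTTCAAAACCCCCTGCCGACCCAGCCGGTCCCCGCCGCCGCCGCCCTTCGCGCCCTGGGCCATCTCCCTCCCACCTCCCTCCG
The IGFBP3 peak covered the upstream 165 of the 300 bases and ended 86 bp short of the start site, while the TGFB1 peak covered all 300. Of the ICAM1 promoter 3 bases were covered and of the FAS promoter 0. GC content was 74.7% in the IGFBP3 promoter and 77.3% in the TGFB1 promoter. The motif of Sp1, GGGCGG on either strand, occurred 2 times in the IGFBP3 sequence and 7 times in the TGFB1 sequence. Of the IGFBP3 matches, the one at -98 lay under the peak and the one at -6 did not. At least 1 such motif was present in 58.5% of the 15812 protein-coding promoters of the same length, so it is common at any start site. The share was 70.5% in those with an mTOR promoter peak and 56.1% in those without.

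A promoter peak was defined as an assigned peak with any part within 1 kb of the start site. Of the 59 secretory factor genes 7 had one (11.9%, 4.91 to 22.9%), against 15.5% of all protein-coding genes, a background that lies within the interval. These were CSF1, CCL2, FAS, ICAM1, IGFBP3, IGFBP7 and TGFB1. No interleukin, no CXC chemokine, no matrix metalloproteinase and no epidermal growth factor ligand of the list was among them. Each of these families holds few genes, so against a background of 15.5% the lack is not read as a result. For all 8 proteases, with 0, the interval reaches 36.9%. Assigned peaks at any distance reached 30 genes (50.8%, 37.5 to 64.1%), against 41.7% of all protein-coding genes, again within the interval. By role, the interval of each of the 8 groups held the 15.5% of promoter peaks, and that of each group except growth and differentiation factors held the 41.7% of assigned peaks. No test of the groups was made.

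**Figure D1:**
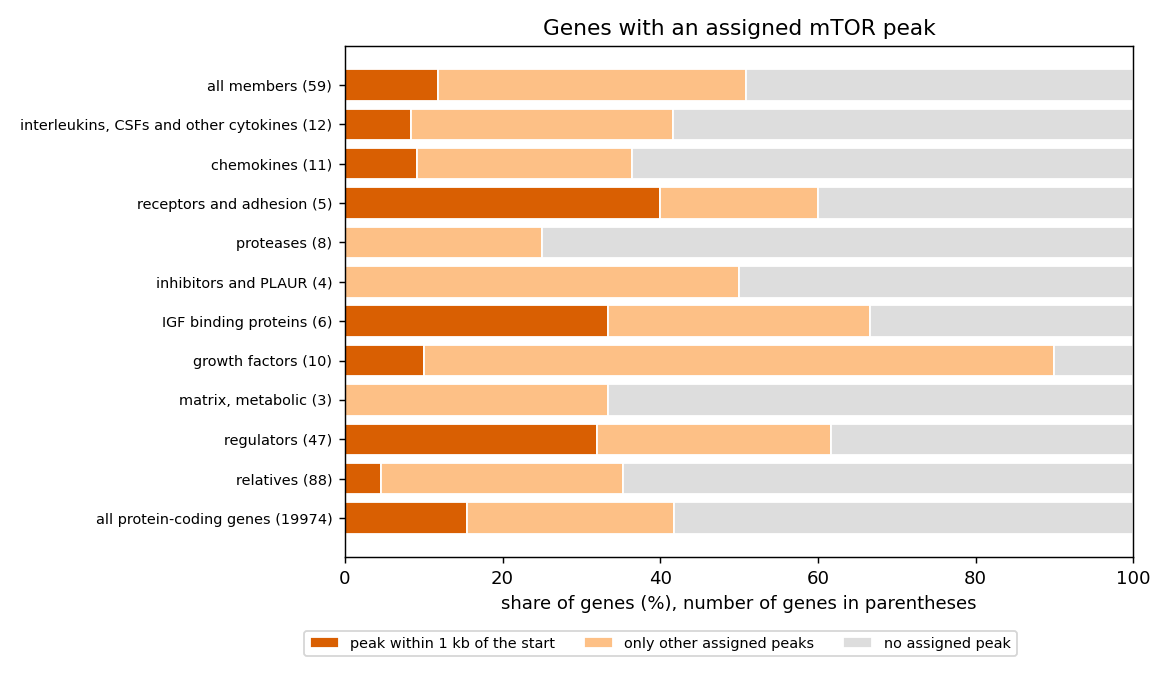
Each bar divides the genes of a list into those with an mTOR peak within 1 kb of the start, those with only other assigned peaks and those with none, in percent, with the number of genes in parentheses. Growth factor genes had the fewest without a peak, 1 of 10, and proteases had 6 of 8 without, against 11648 of 19974 protein-coding genes. Regulators of the phenotype, chosen with earlier results of these data known, had promoter peaks in 15 of 47, against 3097 of 19974 protein-coding genes.

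The highest-scoring promoter peak of the secretory factors was at FAS, the death receptor that can be shed from cells, with a score of 90. It covered 88991790 to 88992236 on chromosome 10, and its centre lay 582 bp downstream of the start used in the annotation. The RefSeq start site of FAS was 992 bp from the nearest edge of that peak. The deposited class placed the peak at the promoter of a transcript of ACTA2, the smooth muscle actin gene that runs the other way from within FAS. As a promoter peak this peak therefore counts for FAS only by distance, although it also lay over the span of FAS. IGFBP7, which encodes a secreted protein of the insulin-like growth factor binding family, had a peak of score 82 in exon 1 (chromosome 4, 57109494 to 57110669, centre at 304 bp). CSF1, the growth factor of macrophages, had 60 in its intron 1 (chromosome 1, 109911054 to 109911565, centre at 460 bp). These 3 were the only genes of the list with a promoter peak of 60 or more.

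The IGFBP3 peak had a score of 44, centred at -343 bp (chromosome 7, 45921358 to 45921873). CCL2, which draws monocytes, had 25 in its intron 1 at 757 bp (chromosome 17, 34255903 to 34256181). ICAM1, the adhesion molecule that leukocytes bind, had 23 at 199 bp (chromosome 19, 10271167 to 10271472). TGFB1 had 2 peaks in the window, of score 21 across the start (centre at -43 bp, chromosome 19, 41353685 to 41354245) and 29 in exon 1 (centre at 1048 bp). All 8 promoter peaks thus scored between 21 and 90, with a median of 36.5, against a median of 54 for the 3335 promoter peaks of all protein-coding genes. Above the median of 61 over all peaks lay 2 of the 8 (25.0%, 3.19 to 65.1%), against 43.2% of the 3335, and at 200 or above 0 of the 8, for which the interval reaches 36.9%, against 9.48%. Both backgrounds lie within the intervals. Just outside the window lay a further ICAM1 peak of score 38 over a CpG island, whose near edge was 1044 bp upstream of the start, and just inside lay the TGFB1 exon peak, whose near edge was at 800 bp.

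**Figure D2:**
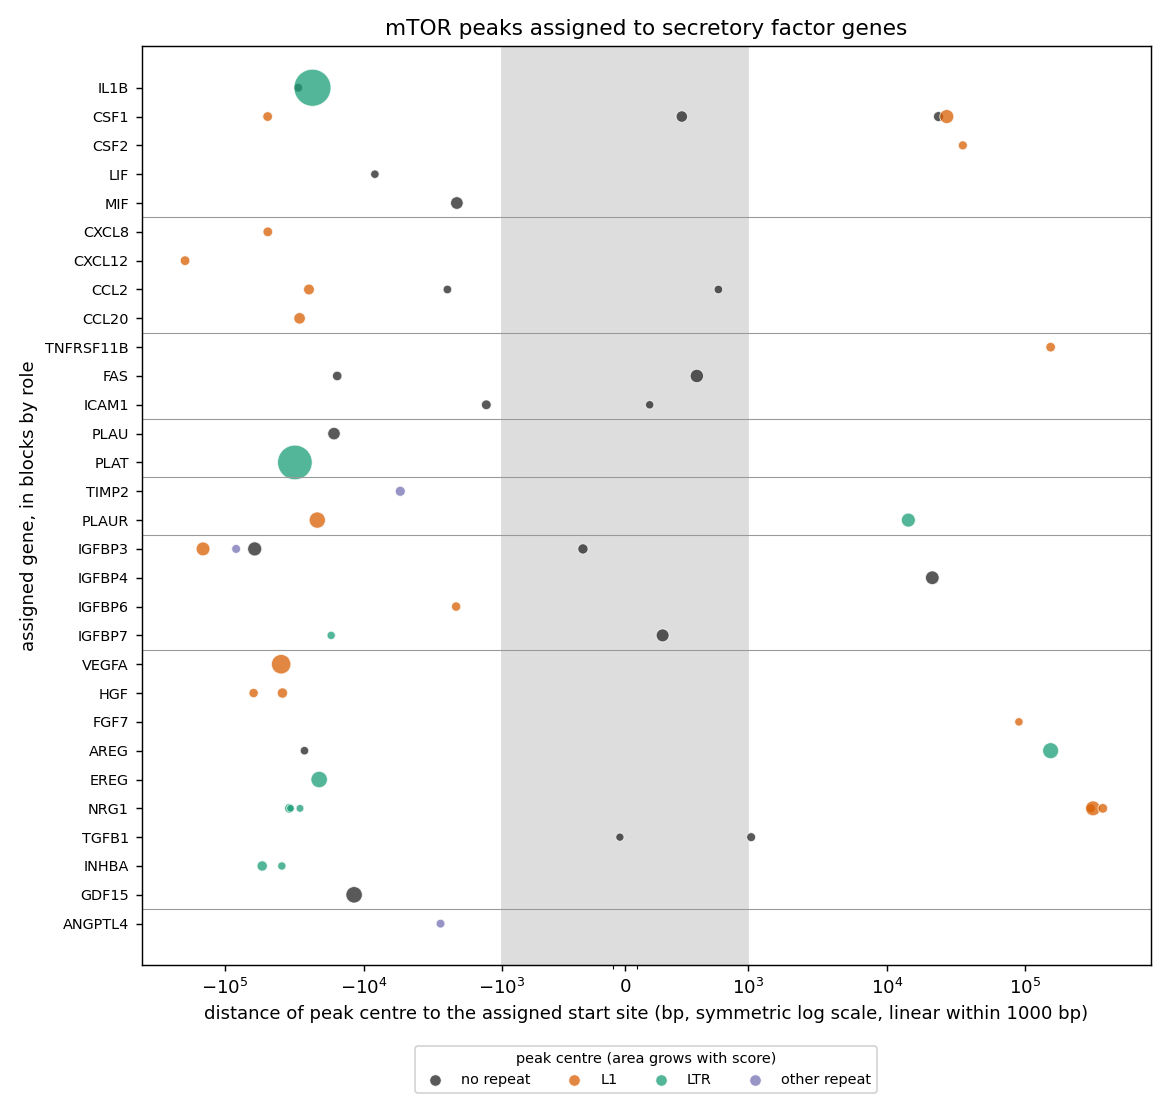
Each point is an mTOR peak assigned to the gene of its row, placed by the distance of its centre from the start site in bp (symmetric log scale), coloured by the repeat at the centre, with an area that grows with score; the grey band is 1 kb either side of the start. All 8 promoter peaks are free of repeats, and most points far from a start are L1 or LTR elements.

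Peaks away from the start sites lay mostly over repeats. Of the 52 peaks 32 (61.5%, 47.0 to 74.7%) had a repeat at the centre, against 64.4% of all peaks. All 32 were among the 44 peaks outside the 1 kb window, where they made up 72.7% (57.2 to 85.0%), against 77.5% of all peaks outside it. The 8 promoter peaks had none, and of all 3335 promoter peaks of protein-coding genes 3.51% had one. L1 retrotransposons, the most abundant LINE family, held 18 of the 52 peaks (34.6%, 22.0 to 49.1%), against 34.2% of all peaks. Retroviral LTR elements held 11 (21.2%, 11.1 to 34.7%), against 18.35% of all peaks. Of these 11, 7 belonged to the ERVL-MaLR family (13.5%, 5.59 to 25.8%, against 8.44%) and 4 to ERV1 (7.69%, 2.14 to 18.5%, against 7.50%). Each of these backgrounds lies within its interval. Alu elements held 2 and an L2 element 1, against 713 and 610 of the 21440 peaks. The shares over repeats and over L1 were thus near those of the whole list.

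The deposited classes placed 37 of the 52 peaks in intergenic sequence (71.2%, 56.9 to 82.9%), against 43.6% of all peaks. Introns held 10 (19.2%, 9.63 to 32.5%), against 37.8%, the promoter class 3, against 13.0%, and exons 2, against 2.43%. The secretory factor genes were short, with a median span of 10.6 kb against 24.2 kb for all protein-coding genes, and the part of gene length in the class shares was not tested. Of the 10 intron peaks only those of CCL2, CSF1, ICAM1 and PLAUR were labelled with a transcript of the gene they were assigned to. The other 6 were labelled with introns of neighbours: a FAS peak with ACTA2, the FGF7 peak with FAM227B, the MIF peak with GSTTP2, an IGFBP7 peak with IGFBP7-AS1 and both INHBA peaks with INHBA-AS1. The FAS peak with the ACTA2 label also lay within the span of FAS. The median distance to the start was 25717.5 bp for the 52 peaks and 21627.5 bp for all peaks, and 12 of the 52 (23.1%, 12.5 to 36.8%) lay more than 50 kb away, against 30.1%.

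Scores of the 52 peaks ran from 15 to 821 with a median of 37.5, against 61 for all peaks. Above that median of 61 lay 17 of them (32.7%, 20.3 to 47.1%), against 47.0% of all peaks. A score of 200 or more was reached by 3 (5.77%, 1.21 to 16.0%), against 10.0%. All 3 were distal and over a repeat. Of all 2147 peaks at 200 or above, 1782 lay outside the 1 kb window and 62.6% were over a repeat.

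**Figure D3:**
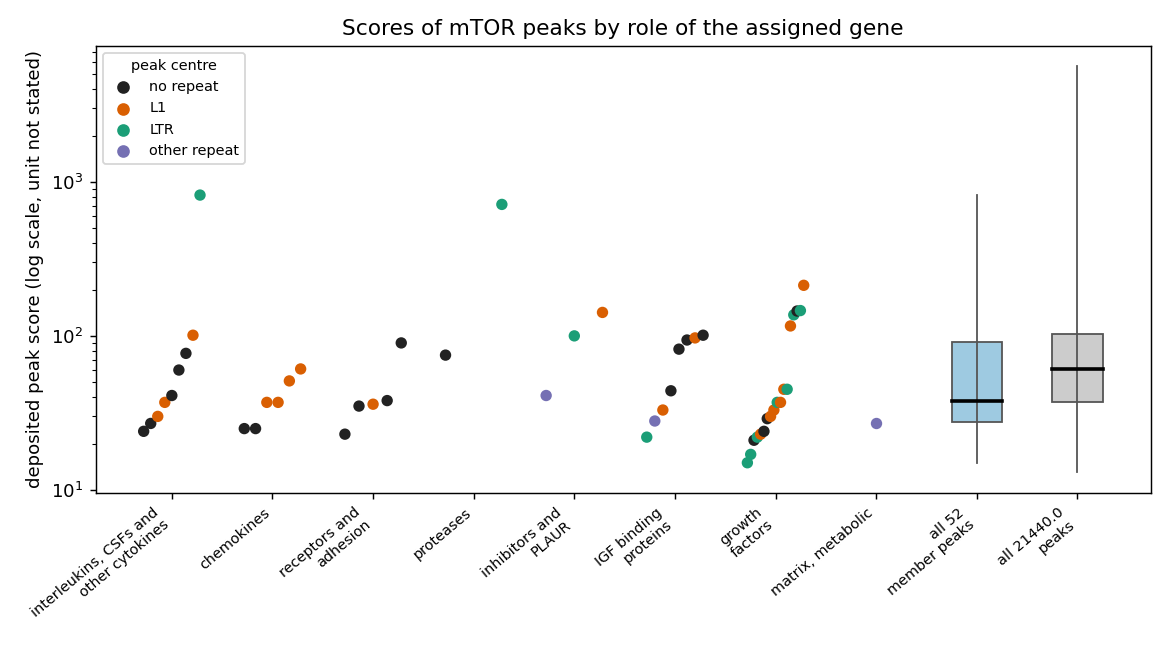
Each point is an mTOR peak with its deposited score (log scale, unit not stated), by the role of the assigned gene and coloured by the repeat at the centre; the boxes give the quartiles and median, and the lines the range, of the 52 peaks and of all 21440. The peaks near IL1B and PLAT, at 821 and 714, stand well above the other points, and both are LTR elements.

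Among interleukins and colony-stimulating cytokines, 5 of 12 genes had an assigned peak (41.7%, 15.2 to 72.3%), the same share as over all protein-coding genes. The strongest of all 52 was near IL1B, which encodes the inflammatory cytokine interleukin 1β. Its score of 821 ranked 141 in the whole list, and it lay in intergenic sequence 23358 bp upstream of the start (chromosome 2, 112859529 to 112860745) over MER4-int, the internal part of an ERV1 retrovirus. Of the 86 peaks over MER4-int elements, whose median score was 179, it was the highest. A second IL1B peak of score 27 without a repeat lay 29603 bp upstream. IL1A, the neighbouring gene for interleukin 1α, had no assigned peak, and the IL1B peak of 821 was the closest to it, 75.0 kb from the gene.

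CSF1 had 4 peaks, the most in this group. Besides the peak in intron 1 they scored 37 over L1PA6 at -49183 bp, 41 without a repeat at 23587 bp and 101 over L1M4 at 27070 bp. MIF, which encodes macrophage migration inhibitory factor, had a peak of 77 at -2119 bp. CSF2, the gene of the growth factor GM-CSF, had 30 over L1PA4, 35354 bp downstream of the start. LIF, a cytokine of the interleukin 6 family, had 24 at -8280 bp. IL6, IL7, IL11, IL15, CSF3 and TNF had none. The peak closest to IL6, a main product of senescent cells, was 81.0 kb from the gene and was assigned to LOC401312, and the closest to IL15 was 922.1 kb away.

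Chemokines had peaks at 4 of 11 genes (36.4%, 10.9 to 69.2%, against 41.7% of all protein-coding genes), CXCL8, CXCL12, CCL2 and CCL20, and none of the 6 peaks scored above 61. CCL2 had 3, the other 2 at -2480 bp with a score of 25 and at -24752 bp over L1PA15 with 51. CCL20, which attracts cells that carry CCR6, had 61 over L1PA6 at -28939 bp. CXCL8, the neutrophil attractant interleukin 8, had 37 over L1PA5 at -49059 bp. CXCL12, the ligand of CXCR4, had 37 over L1PA7 at -194207 bp. Outside CCL2, then, the chemokine peaks lay over L1 elements and at least 28939 bp from the start. With CCL2 included, 4 of the 6 were over L1 (66.7%, 22.3 to 95.7%), against 34.2% of all peaks. Among all peaks outside the 1 kb window 41.5% were over L1, and the median distance was 31499 bp. CXCL1, CXCL2, CXCL3, CXCL10, CCL5, CCL7 and CCL8 had none.

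Several of these genes share a cluster, so their values are not independent. From CXCL8 to AREG on chromosome 4, a stretch of 714.4 kb with 6 genes of the list, there were 3 peaks, assigned to MTHFD2L, EREG and AREG. Over the 66.1 kb that hold CCL2, CCL7 and CCL8 on chromosome 17 there was 1, the promoter peak of CCL2. Over the 73.1 kb that hold MMP10, MMP1 and MMP3 on chromosome 11 there was 0. The density of peaks over the genome was not computed for stretches of these lengths, so the counts are not read as high or low.

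Matches to the NF-κB motif in promoters without an mTOR peak are shown because NF-κB is known to act on secretory factor genes through such sites. The NF-κB consensus searched was GGGRNWYYCC, where R is A or G, W is A or T, Y is C or T and N is any base. It was searched on both strands of the 41 secretory factor promoters found in RefSeq. A match was held by 8 of them (19.5%), against 6.37% of all 15812 protein-coding promoters. Variant sites that differ from this pattern, such as tggaaattcc in the ICAM1 promoter, were not counted. A promoter without a match is therefore not shown to lack an NF-κB site. Capitals mark the match, on the strand of the gene, with 5 bases on either side. Overlapping matches on both strands occurred in CXCL1, CXCL2 and CXCL3, and the upstream match of each is given. The matches began 79 bases before the start in CXCL1, CXCL3 and CCL20, 78 in CXCL2, 122 in CXCL10 (which held another, further upstream) and 73 in IL6. Their coordinates (GRCh38.p14) are chr4:73869309-73869328 on the plus strand for CXCL1, chr4:74099259-74099278 on the minus strand for CXCL2, chr4:74038754-74038773 on the minus strand for CXCL3, chr4:76023605-76023624 on the minus strand for CXCL10, chr2:227813758-227813777 on the plus strand for CCL20 and chr7:22727122-22727141 on the plus strand for IL6.
CXCL1: actccGGGAATTTCCctggc
CXCL2: gctccGGGAATTTCCctggc
CXCL3: gctccGGGAATTTCCctggc
CXCL10: aacatGGGACTTCCCcagga
CCL20: aatggGGAAAACCCCatgtg
IL6: aatgtGGGATTTTCCcatga
IGFBP5 and IGFBP6 held the remaining matches. None of these 8 genes had an mTOR peak within 1 kb of its start. Among all protein-coding promoters the match was about as frequent with an mTOR peak, 6.91%, as without, 6.26%, and only 4 secretory factor promoters in this set, those of FAS, ICAM1, IGFBP3 and TGFB1, had a peak, so nothing is read from its lack in them. The motif of AP-1, TGANTCA, was found in 7 of the 41 (17.1%), FAS among them, against 5.76% of all protein-coding promoters. The core of the RONIN motif, CTACA followed by TCCC after any 2 bases, on either strand, was found in 0 of the 41. Among all protein-coding promoters it was present in 6.99% of the 2576 with an mTOR peak and in 2.30% of the 13236 without. Median GC content was 69.7% in the 4 secretory factor promoters with a peak and 57.7% in the 37 without, and 65.7% and 62.0% in all protein-coding promoters with and without a peak. Such matches are descriptions of the letters in these windows.

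Receptors and adhesion molecules had peaks at 3 of 5 genes (60.0%, 14.7 to 94.7%, against 41.7%). Besides the promoter peaks, FAS had 35 in intron 1 of ACTA2 at -15488 bp. TNFRSF11B, which encodes the decoy receptor osteoprotegerin, had 36 over L1PA3, 152113 bp from the start. TNFRSF1A and TNFRSF1B, the receptors of tumour necrosis factor, had no assigned peak. Proteases had peaks at 2 of 8 genes (25.0%, 3.19 to 65.1%, against 41.7%), the plasminogen activator genes PLAU and PLAT, and at none of the 6 matrix metalloproteinase genes MMP1, MMP2, MMP3, MMP9, MMP10 and MMP14. The PLAT peak, the second strongest of the 52, had a score of 714 at -31281 bp (chromosome 8, 42238272 to 42239420) over LTR8B, an ERV1 long terminal repeat. It ranked 6 among the 99 peaks over LTR8B, whose median score was 106. PLAU had 75 at -16330 bp without a repeat. PLAUR, the receptor of the PLAU product, had 142 over L1MEd at -21564 bp and 100 over MLT1J in its intron 4. TIMP2, a metalloproteinase inhibitor, had 41 over an AluSz element at -5428 bp. TIMP1, the 1 gene of the list on chromosome X, and SERPINE2 had none. No peak assigned to these protease system genes therefore lay within 5 kb of the start. Among all protein-coding genes 20.3% had one that close, so most genes lack such a peak.

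IGF binding proteins, which hold insulin-like growth factors outside cells, had peaks at 4 of 6 genes (66.7%, 22.3 to 95.7%, against 41.7%). IGFBP3 had 4, and besides its promoter peak they scored 101 without a repeat at -61021 bp, 28 over L2 at -83068 bp and 97 over L1PA4 at -144004 bp. IGFBP4 had 94 without a repeat at 21282 bp. IGFBP6 had 33 over L1PA10 at -2145 bp. IGFBP7 had, besides the peak in exon 1, 22 over THE1B-int at -17115 bp. IGFBP2 and IGFBP5, which lie side by side on chromosome 2, had none, and the closest peaks were 133.7 and 173.0 kb away.

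Growth and differentiation factors had an assigned peak at 9 of 10 genes (90.0%, 55.5 to 99.8%), against 41.7% of all protein-coding genes. Most of these peaks were remote: outside TGFB1 the nearest lay 11694 bp (GDF15) to 89805 bp (FGF7) from the start. Only NRG1, TGFB1 and GDF15 of the group had a peak over the gene or 10 kb beside it, against 47.6% of all protein-coding genes. A promoter peak was present at 1 of the 10, TGFB1 (10.0%, 0.25 to 44.5%), near the 15.5% of all protein-coding genes. VEGFA, which drives blood vessel growth, had 213 over L1M4 at -39322 bp, the third of the 52 at 200 or above, and it ranked 27 among 159 peaks over L1M4. EREG, a ligand of the epidermal growth factor receptor, had 146 over MSTA-int at -20899 bp. AREG, another such ligand, had 137 over THE1B-int at 152103 bp and 24 without a repeat at -26683 bp. GDF15, a stress-induced cytokine, had 145 without a repeat at -11694 bp. Of the 18 peaks in this group 14 were over a repeat (77.8%, 52.4 to 93.6%), against 64.4% of all peaks, a background within the interval. NRG1 alone held 6 of the 14. Both peaks inside the promoter window were those of TGFB1. HGF had 45 and 33, both over L1 elements, INHBA 45 and 22, both over ERV1 elements, and FGF7 23 over L1PA8. FGF2 had none.

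NRG1, the gene of the ligand neuregulin 1, had 6 assigned peaks, the most of any gene of the list, all intergenic and all over repeats. On the upstream side 3 lay between -34270 and -28741 bp, with scores of 37, 15 and 17. On the far side 3 lay beyond the end of the gene, with scores of 30, 116 and 37. Their deposited distances, 296759 to 362168 bp, were measured from a start site further along NRG1 than the one used for the upstream peaks. Of all protein-coding genes 96 had that same number of peaks. ANGPTL4, which encodes an inhibitor of lipoprotein lipase, had 27 over an AluSq2 element at -2780 bp, while the matrix protein gene FN1 and STC1 had none.

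Assignment to the nearest start left out peaks that lay inside secretory factor genes. Over the spans of the 59 genes there were 21 peaks, in 11 genes (18.6%, 9.69 to 30.9%), against 33.0% of all protein-coding genes, whose spans were longer, as given above. Another gene had been assigned 12 of the 21. NRG1 held 5 of these inside its introns, with scores of 207, 97, 86, 69 and 41, assigned to the non-coding genes NRG1-IT1 and NRG1-IT3. IGFBP7 held 4 in intron 1, with 262 for the strongest (chromosome 4, 57077537 to 57078078, over a MIRb element) and 54, 18 and 18 for the others, all assigned to IGFBP7-AS1. The IGFBP7 body peak of 262 was thus above its promoter peak of 82.

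GDF15 held a peak of 23 in exon 2, assigned to the microRNA gene MIR3189. TNFRSF1B held 78 over a MIRb element in intron 1, assigned to MIR4632. TIMP2 held 133 over L1PA16 in intron 3, assigned to USP36. In NRG1, GDF15, TNFRSF1B and TIMP2 every peak over the gene had been assigned elsewhere. When 10 kb beside each gene was included, 24 of 59 genes had a peak (40.7%, 28.1 to 54.2%), against 47.6% of all protein-coding genes. No peak had been assigned to 7 of the 24. These 7 were IL11, CSF3, TNF, TNFRSF1B, MMP2, MMP9 and MMP14, and their closest peaks had been assigned to TMEM190, MIR6884, LTB, MIR4632, LPCAT2, SLC12A5-AS1 and MRPL52. Over the 29 genes without an assigned peak, the closest peak was a median of 63.3 kb away.

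**Figure D4:**
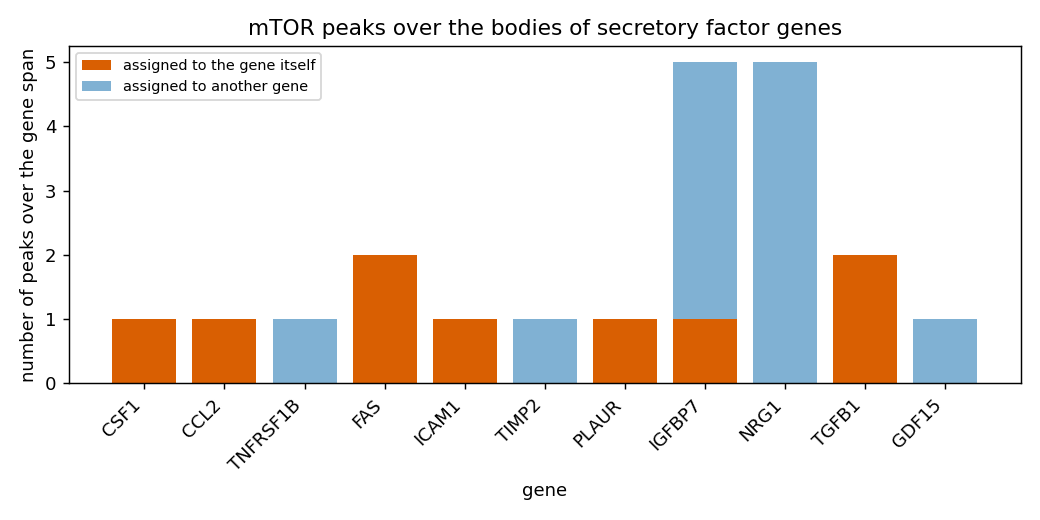
Bars count the mTOR peaks over the span of each secretory factor gene that had any, divided by whether the deposited annotation assigned the peak to that gene or to another. NRG1 and IGFBP7 had 5 peaks each, of which 0 and 1 were assigned to the gene itself.

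Genes known to control the secretory phenotype were counted in the same way. Of 47 such regulators 15 had a promoter peak (31.9%, 19.1 to 47.1%), against 15.5% of all protein-coding genes. This list was chosen with earlier results of these data known, so its interval cannot show an excess. No test of the list, or of its difference from the secretory factors, was made. HMGB1, a chromatin protein that senescent cells release, was highest with 510 (chromosome 13, 30617348 to 30618151, centre at -152 bp). ZFP36L2, which promotes decay of AU-rich mRNAs, had 203 in exon 2, with its centre 1464 bp from the start. FOS, a subunit of AP-1, had 116, MAPK14, the stress kinase p38α, had 85, and CEBPD, a C/EBP family factor, had 69. Within the NF-κB pathway 5 of 15 genes had one, RELA, CHUK, NFKBIA, TRAF6 and NFKB2, with scores from 63 down to 32. The remaining 5 were CGAS, JAK1, NBN, IRF3 and IRF1, at 30 or less.

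Relatives of the secretory factors, the 88 other chemokine, interleukin, metalloproteinase, TIMP and IGFBP genes by symbol, had a promoter peak in 4 (4.55%, 1.25 to 11.2%), against the same 15.5%. These were MMP15 with 85, CCL28 with 78, MMP28 with 45 and MMP17 with 24. The 34 interleukin genes outside the list had 0, for which the exact interval reaches 10.3%. Peaks at any distance were assigned to 13 of the 34 (38.2%, 22.2 to 56.4%), against 41.7% of all protein-coding genes, a background within the interval. No interleukin gene of the list itself had a promoter peak either, but those genes are few.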

How the data were processed

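An mTOR antibody was used to enrich chromatin of MDA-MB-231 cells, and paired reads were sequenced from 1 ChIP and 1 input library, per the labels' protocols. Trimmomatic 0.36, BWA 0.7.12, Picard 2.0.1, MACS2 2.1.1.20160309, HOMER 4.11.1 and hg38 are named, per the submitters' processing notes, which give no settings. The peak threshold and the handling of duplicate and multiply aligned reads, which bear on peaks over repeats, are not given in the sources. The authors deposited 1 table of annotated peaks with a whole-number score of unstated scale, and distances to the nearest start in bp. No table of the input library was analysed here, and depth is unknown.

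Peaks were taken by deposited gene name, and all matched the gene identifier in a RefSeq gene table (GRCh38.p14), which held the identifiers of 99.7% of all peaks. Deposited coordinates were read as 1-based. Promoter sequences came from RefSeq for 41 of the 59 genes. Shares have exact Clopper-Pearson 95% intervals. The list, the regulators, the motifs and the alternatives were chosen with earlier results of these data known. Genes named are all members with a promoter peak, the up to 3 strongest and most peak-rich of each role, members without a peak, the 5 strongest regulators and the 3 strongest relatives; regulators and relatives beyond these were named after their values were seen. The window count was run on simulated peaks placed by the same window and width rule, which checks its arithmetic only. Alternatives were stricter scores, other windows and overlaps, distance limits, gene spans, and repeat peaks or the most peak-rich gene left out. Tools were Python 3.11.15, scipy 1.17.1 (intervals), pandas 2.3.3 with numpy 2.4.6, and matplotlib 3.10.9.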

Additional observations from a re-analysis of the deposited data

How the results depend on the processing

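Of 40 values under the alternatives, 20 stayed within 1.5 times the count, or within the interval of the share, and 20 did not. Genes with an assigned peak, 30 of 59, numbered 16 among peaks with a score of 61 or above (26.7% of all protein-coding genes), 3 among those of 200 or above (7.02%), 14 without repeat peaks (23.1%) and 12 within 10 kb of a start (24.2%). Their 52 peaks became 18, 3, 20 and 15 in the same order. Genes with a promoter peak, 7, numbered 2 at scores of 61 or above (7.45% of all protein-coding genes), 0 at 200 or above (1.58%), 4 with windows of 100 bp (10.9%) and 3 by the deposited promoter class (12.0%). With 5 kb they numbered 10 (20.3%). Regulators with one, 15, became 7 at 61 or above, 23 with 5 kb and 8 by the deposited class, and relatives, 4, became 2, 9 and 1. The share of peaks over a repeat, 61.5%, was 20% within 10 kb of a start (33.1% of all peaks). The share beyond 50 kb, 23.1%, was 5% without repeat peaks (11.2% of all peaks). The subsets hold fewer peaks by construction. Without NRG1, 46 peaks remained, 56.5% of them over a repeat. No paired analysis was possible because each group holds 1 library. With no replicate, no value here has an error between libraries, and an undetected peak does not show absent binding.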

Other observations

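The 18 L1 peaks assigned to secretory factor genes spanned all ages of the family. The youngest elements, L1HS to L1PA4, held 3 (16.7%, against 12.8% of all L1 peaks), L1PA5 to L1PA8 held 5 (27.8% against 27.0%), other primate L1P elements 4 (22.2% against 13.4%) and L1M and other older elements 6 (33.3% against 46.9%). Of the 52 peaks, 35 lay upstream of the assigned start (67.3%, 52.9 to 79.7%), against 46.6% of all peaks. In the promoter window 2 of 8 did, against 57.2% of the promoter peaks of all protein-coding genes. Outside the window 33 of 44 did (75.0%, 59.7 to 86.8%), against 44.6% of all peaks outside it. These shares were compared after the values had been seen, and no test of them was made.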
